A study of Danio rerio with 24 samples.

Results

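Phase II conjugation enzymes are described here in bulk RNA-Seq of dissected zebrafish livers. The genes were the rows of the count table whose symbols begin as those of glutathione transferases (*gst*, *mgst*), UDP-glucuronosyltransferases (*ugt*), sulfotransferases (*sult*), N-acetyltransferases (*nat*) or of 1 smaller class, without *gstz1*, and whose counts summed to at least 100 over the 18 libraries. Of 19793 rows, 71 matched by symbol and 62 had enough counts. They comprised 19 glutathione transferases (GST), 22 rows of the *ugt* prefix (UGT), 13 sulfotransferases (SULT) and 6 rows of the *nat* prefix (NAT). These are 60 genes in all. Rows of the *ugt* prefix are called glucuronosyltransferases here, *ugt8* included. Of the 9 rows under the minimum, 1 was at 0 in every library. The rows nearest the minimum were *ugt5c1* (94 counts), *sult1st9* (69) and *ugt1b3* (56) below it, and *ugt5c2* (225), *ugt5e1* (255) and *gstp2* (489) above it.

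Conjugation is the step of detoxification in which a cell attaches a large polar group to a lipophilic compound. Glutathione, glucuronic acid, sulfate and acetyl groups are each transferred by their own enzyme family from an activated donor, and the products leave the hepatocyte through export pumps into bile or blood. The same enzymes act on the body's own compounds, including bilirubin, steroid and thyroid hormones and, for some sulfotransferases, bile salts.

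Libraries came from AB strain larvae at 7 dpf, and each was made from RNA of 40 pooled livers. The study compared livers lacking *mtm1*, which encodes the phosphoinositide phosphatase myotubularin, with WT livers and with 2 models of steatosis. There were 4 WT libraries, 6 from *mtm* mutants, 4 from WT larvae given 6 times the usual food from 5 dpf on (overfed), and 4 from WT larvae kept in 2% ethanol for 32 hours (EtOH). Of the 6 *mtm* libraries, 3 are labelled by set number like the other groups (first submission) and 3 as resubmitted, here R1, R2 and R3. The resubmitted ones carry 2 dates, R1 a different one from R2 and R3, and the labels do not say whether their pools are those of the first submission. The study's methods give 4 to 5 replicates per group. Here the 6 are counted as separate libraries, and SDs and p-values for *mtm* would not hold as given if pools were shared. The *mtm* mutation is carried by the whole animal, not by the liver alone. Nothing states that libraries of a group came from separate clutches, so p-values measure the spread between these pools.

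Values are estimated counts scaled to a common library size (CPM) after TMM scaling. Library totals ranged from 8919274 to 20582311 counts, and 1 count in the shallowest library was worth 0.112 CPM. Of the 62 genes, 55 had at least 5 reads in a share of 0.8 of the libraries and were tested. The level of *mtm1* was 3.23 to 7.92 CPM in WT, 3.80 to 7.73 in overfed, 0.159 to 2.38 in *mtm* and 2.23 to 4.88 in 3 EtOH libraries, while EtOH replicate 1 had 0.175 CPM (3 counts), within the range of *mtm*. Among the 11489 genes tested, 847 had no read in *mtm* R2 and 472 none in EtOH replicate 1, against 2 to 133 in the other 16 libraries. Of the 55 tested conjugation genes, 12 were at 0 in *mtm* R2. The hepatocyte marker *fabp10a* was present in every library, at 11216 to 15288 CPM in WT, 7235 to 26363 in *mtm* and 5603 to 7700 in EtOH. Exocrine pancreas markers summed to over 10000 CPM in 5 libraries (WT 2 and 4, *mtm* 1, EtOH 2 and 3).

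In *mtm* livers 13 of 18 tested glutathione transferases fell, where 8.59% of all genes tested were called lower. A run of fish-type *ugt5b* genes and 3 *sult1* genes fell too, while *sult3st4* and *sult2st1* rose. In EtOH livers a smaller set of *gst*-prefix glutathione transferases fell, where 2.70% of all genes were called lower. The same pair of sulfotransferases was called higher there, against the same WT libraries. In each condition the pair was 3.64% of the 55 tested genes, below the share of all genes called higher (10.1% in *mtm*, 4.66% in EtOH). No conjugation gene was called in overfed livers, and neither was any other of the 11489 genes tested. The plot of class totals shows the difference by library.

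**Figure D1:**
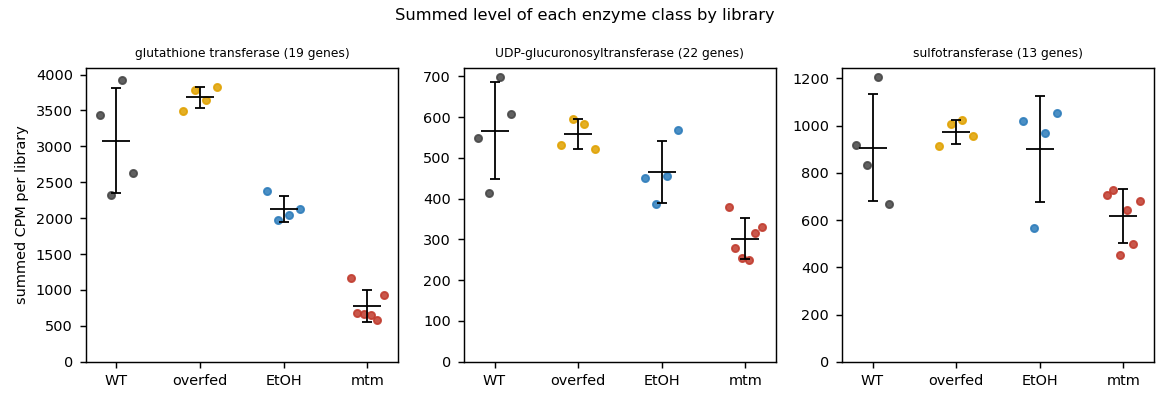
Summed CPM of the glutathione transferases, glucuronosyltransferases and sulfotransferases (vertical axis, linear from 0) in every library of the 4 groups, with the mean and SD in black. All 6 *mtm* points for glutathione transferases (585 to 1167 CPM) lie below the 4 EtOH points (1972 to 2372 CPM), and these lie below 3 of 4 WT and all overfed points.

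The summed level of the 19 glutathione transferases was 3079 ± 734 CPM in WT (SD, n = 4), 780 ± 224 in *mtm* (n = 6), 3686 ± 147 in overfed (n = 4) and 2128 ± 175 in EtOH livers (n = 4). The 22 glucuronosyltransferases summed to 567 ± 119 CPM in WT, 302 ± 50.3 in *mtm*, 558 ± 36.6 in overfed and 466 ± 76.2 in EtOH. The 13 sulfotransferases summed to 907 ± 225 CPM in WT, 617 ± 115 in *mtm*, 974 ± 50.6 in overfed and 901 ± 225 in EtOH. The *mtm* ranges for glutathione transferases and glucuronosyltransferases did not overlap those of WT, while the sulfotransferase ranges did. In bulk RNA, fewer cells of a type and less RNA per cell cannot be told apart. These sums have no test, since the genes were chosen with results of these data known, and longer transcripts weigh more in them. The highest *mtm* value for glutathione transferases and glucuronosyltransferases was *mtm* replicate 1, whose 10 hepatocyte markers summed to 126000 CPM against 26270 to 47540 in the other 5 *mtm* libraries and 110800 to 201500 in WT. Most of the WT marker sum was *apoa2*, itself called lower in *mtm*. A link between marker sums and enzyme totals was not tested.

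In *mtm* against WT livers, 24 of the 55 tested conjugation genes were lower and 2 were higher by edgeR's quasi-likelihood test at a Benjamini-Hochberg adjusted p under 0.05. Over all genes tested, 8.59% were called lower and 10.1% higher. The median log2 fold change was -1.22 over the 55 genes and 0.01 over all 11489. The genes called lower included 13 of 18 glutathione transferases, 6 of 18 glucuronosyltransferases and 4 of 12 sulfotransferases, and both genes called higher were sulfotransferases. With a log2 fold change beyond 2 also required, 16 were lower and 1 was higher, against 3.26% and 4.25% of all genes. Every *mtm* library was below every WT library for 22 of the 55 genes and above for 2, against 6.58% and 6.88% of all genes.

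**Figure D2:**
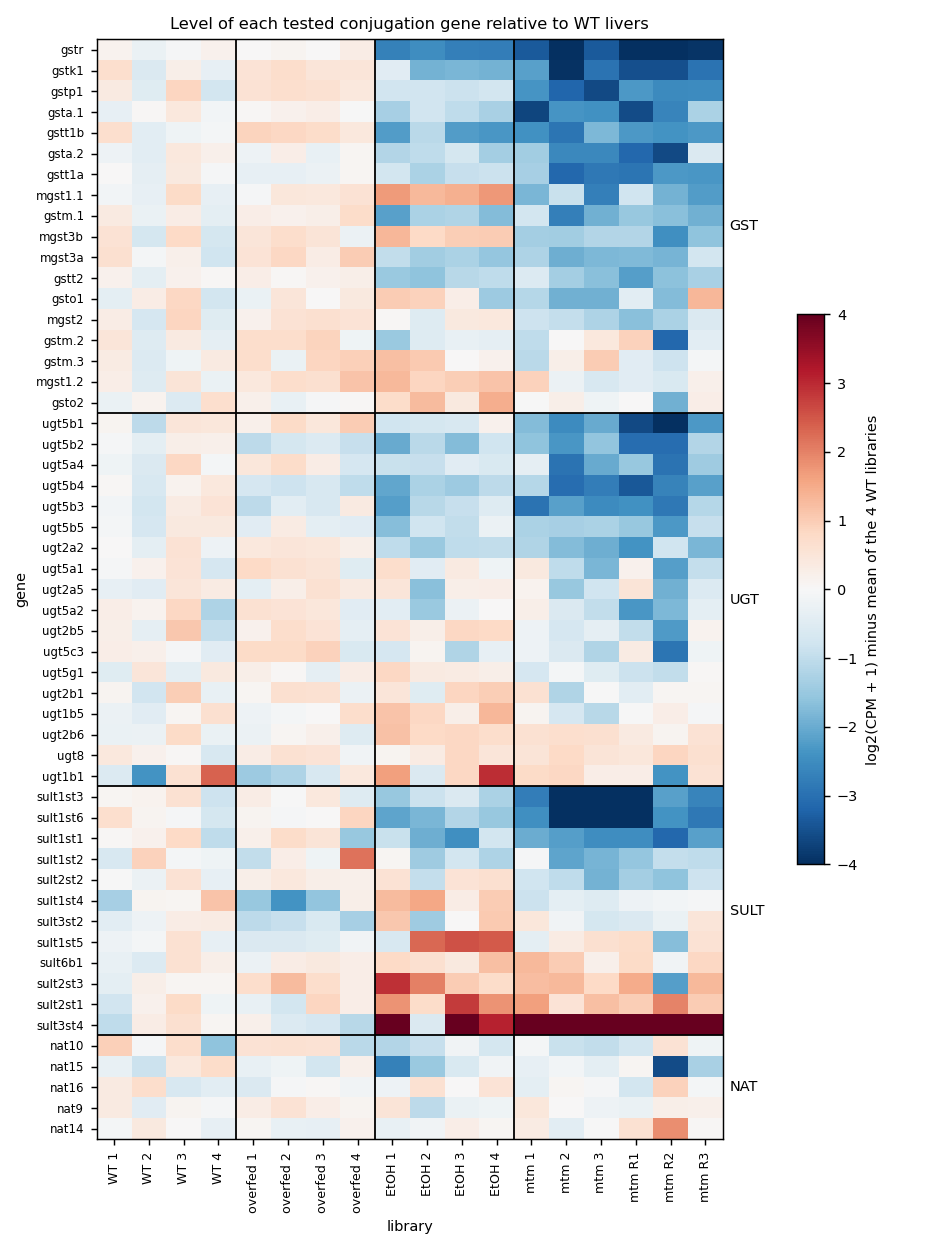
Level of each of the 53 tested genes of the 4 classes (rows, by class) in each of the 18 libraries (columns, by group), as log2(CPM + 1) minus the mean of the 4 WT libraries. Blue is lower and red higher than WT, and colors are capped at 4 in either direction. The upper GST, UGT and SULT rows are mostly blue across the 6 *mtm* libraries, *sult3st4* is red in these and in 3 of 4 EtOH libraries, and overfed libraries are pale.

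The glutathione transferases of the *gst* prefix are taken first, apart from the membrane-bound *mgst* genes. The rho-class gene *gstr*, of a class described in fishes, had 899, 680, 802 and 925 CPM in the WT libraries (replicates 1 to 4, in this order throughout), and in *mtm* its lowest, median and highest values were 37.9, 51.1 and 78.9 CPM. The groups were far apart, and the fitted level was 14.4-fold lower (log2 fold change -3.85 ± 0.245 SE, edgeR's quasi-likelihood test, Benjamini-Hochberg adjusted p = 1.38e-07). EtOH livers, at 124, 146, 123 and 119 CPM, lay between them, 6.38-fold below WT (log2 fold change -2.67 ± 0.269, adjusted p = 3.18e-05). Overfed libraries, at 836 to 1003 CPM, overlapped WT.

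The kappa-class gene *gstk1*, whose mammalian counterpart is found in mitochondria and peroxisomes, was at 187, 78.5, 137 and 92.1 CPM in WT and at 6.68, 11.8 and 25.4 CPM (lowest, median, highest) in *mtm*. No *mtm* library reached the lowest WT library, and the fall was 9.93-fold (log2 fold change -3.31, edgeR adjusted p = 3.32e-06). In EtOH, replicate 1 was at 85.5 CPM, within the WT range, and the other 3 were at 31.1 to 32.0 CPM, with a fall of 2.83-fold (adjusted p = 0.00929).

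The pi-class gene *gstp1* was at 621, 345, 864 and 285 CPM in WT and at 38.8, 82.0 and 97.2 CPM in *mtm*, a 7.35-fold fall (log2 fold change -2.88, edgeR adjusted p = 9.98e-06). WT values spread widely, and still every *mtm* library was lower. In EtOH its 4 values were close together, at 284, 284, 266 and 290 CPM, around the lowest WT library, and it was not called (log2 fold change -0.84, adjusted p = 0.135).

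Of the alpha-class pair, whose mammalian members also reduce lipid peroxides, *gsta.1* was at 260, 332, 430 and 298 CPM in WT and at 24.5, 55.6 and 135 CPM in *mtm* (log2 fold change -2.65, edgeR adjusted p = 1.70e-05). The groups did not overlap, although *mtm* R3 stood above the other 5. In EtOH *gsta.1* was at 129, 190, 161 and 130 CPM (log2 fold change -1.09, adjusted p = 0.0423), a call lost in 13 of 28 alternative fits. Its neighbor *gsta.2* fell from 8.07 to 15.5 CPM in WT to 0 to 7.12 CPM in *mtm* (adjusted p = 0.0247), a call lost in 7 of the 28.

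The theta-class genes also fell. For *gstt1a*, WT libraries were at 366, 277, 470 and 347 CPM and *mtm* at 40.2, 59.6 and 142 CPM (log2 fold change -2.37, edgeR adjusted p = 3.98e-05). For *gstt1b*, WT libraries were at 71.0, 33.0, 38.9 and 42.2 CPM and *mtm* at 4.95, 7.88 and 12.2 CPM (log2 fold change -2.61, adjusted p = 4.38e-05). Both sets of values were apart in all libraries. In EtOH *gstt1b* was lower, at 8.06 to 20.6 CPM (log2 fold change -2.02, adjusted p = 0.00233), whereas *gstt1a* at 150 to 214 CPM was not called (-0.96, adjusted p = 0.0755). Every EtOH library of *gstt1a* was still below every WT library, and 5 of 28 alternative fits called it. The last theta gene, *gstt2*, was at 67.6 to 101 CPM in WT, 18.7 to 60.1 in *mtm* and 28.7 to 43.0 in EtOH, called lower in both.

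Of the mu class, *gstm.1* was called lower in *mtm* (6.96 to 30.7 CPM, against 39.5 to 66.0 in WT) and in EtOH (10.7 to 22.04 CPM), while *gstm.2* and *gstm.3* were not called in either. The omega-class genes *gsto1* and *gsto2*, related to enzymes that reduce dehydroascorbate in mammals, were not called. Their *mtm* values were 0 to 8.65 and 3.26 to 18.6 CPM, and both ranges overlapped WT. The low pi-class gene *gstp2* did not pass the filter, with 0 to 1.45 CPM in WT and at most 0.599 CPM in overfed, while *mtm* R2, *mtm* R3, EtOH 2 and EtOH 3 had 8.51, 4.13, 7.89 and 10.04 CPM. Without the filter it was not called against WT in *mtm* (edgeR adjusted p = 0.665) or in EtOH (adjusted p = 0.501).

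**Figure D3:**
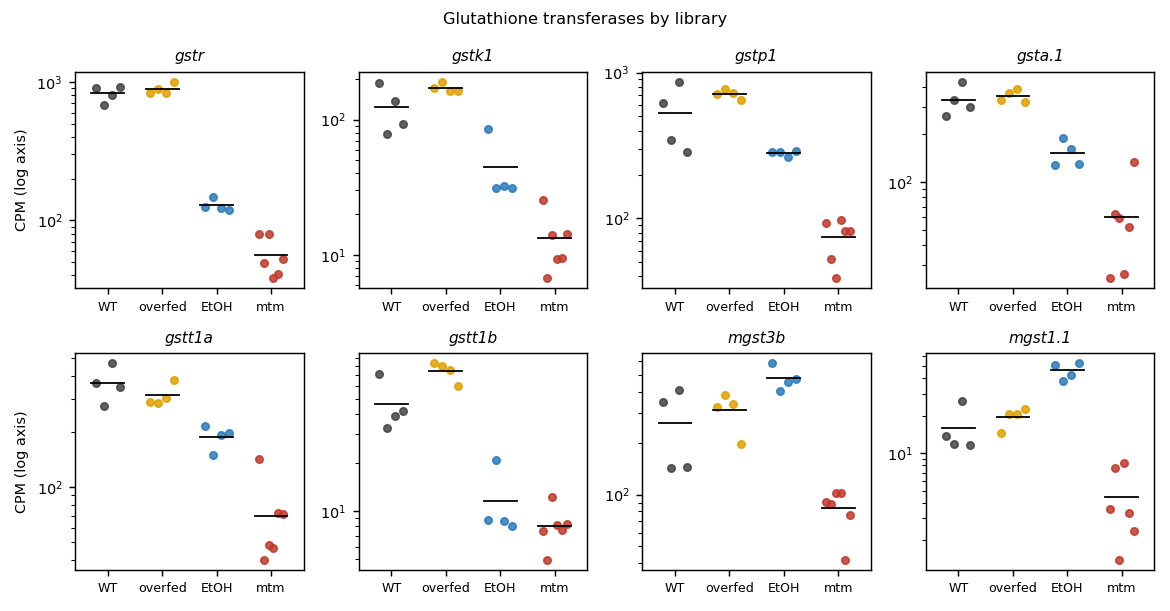
CPM of 8 glutathione transferases (log axis) in each library by group, with the group mean as a line. *gstr* steps down from WT and overfed (680 to 1003 CPM) through EtOH (119 to 146) to *mtm* (37.9 to 78.9), while *mgst3b* and *mgst1.1* lie highest in EtOH.

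The membrane-bound glutathione transferases in mammals sit in the endoplasmic reticulum and mitochondrial membranes and include enzymes of leukotriene synthesis. Of the 5 genes, 4 were called lower in *mtm* than in EtOH livers, all but *mgst3a* (edgeR adjusted p = 0.602). The share called lower over all genes was 4.20%. For *mgst3b*, WT replicates were at 347, 144, 409 and 144 CPM, *mtm* at 41.6, 89.2 and 102.98 CPM, and EtOH at 585, 402, 458 and 476 CPM. The order was *mtm* below WT in every library, with EtOH above all WT libraries but replicate 3, which at 409 CPM exceeded EtOH replicate 2. The fall in *mtm* was 3.25-fold (log2 fold change -1.70 ± 0.277, edgeR adjusted p = 4.00e-04), the difference of EtOH from WT was not called (1.002 ± 0.306, adjusted p = 0.057), and the direct test of *mtm* against EtOH gave 6.52-fold (-2.70 ± 0.286, adjusted p = 4.82e-04).

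A similar order was seen for *mgst1.1*, at 13.8, 11.8, 26.2 and 11.8 CPM in WT, 1.39, 3.44 and 8.28 CPM in *mtm* and 51.5, 38.2, 42.4 and 52.8 CPM in EtOH. The 3 groups did not overlap. It fell 3.77-fold in *mtm* (edgeR adjusted p = 0.00585), was not called in EtOH against WT (log2 fold change 1.5, adjusted p = 0.0663, passing the threshold in 9 of 28 alternative fits), and was 10.7-fold lower in *mtm* than in EtOH (log2 fold change -3.42, adjusted p = 0.00149). Its neighbor *mgst1.2* was at 201 to 412 CPM in WT, 183 to 544 in *mtm* and 516 to 705 in EtOH. Of these, the EtOH libraries were above all WT libraries without a call (1.03, adjusted p = 0.0629), and *mtm* was not called against WT (adjusted p = 0.918). The call of *mgst1.2* in *mtm* against EtOH (-1.10, adjusted p = 0.0351) was lost in 12 of 28 alternative fits.

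The other membrane-bound genes took separate paths. For *mgst3a*, a paralog of *mgst3b*, values were 22.7 to 62.6 CPM in WT, 9.48 to 23.7 in *mtm* and 13.01 to 19.7 in EtOH, with a call in both (log2 fold changes -1.69 and -1.39, edgeR adjusted p = 8.21e-04 and 0.0174). For *mgst2*, values were 21 to 61.5 CPM in WT, 10.03 to 22.3 in *mtm* and 23.3 to 45.2 in EtOH, and it was called only in *mtm* (-1.17, adjusted p = 0.00872). That *mgst2* differed between the 2 conditions was shown by the direct test (-1.21, adjusted p = 0.0232), a call lost in 7 of 28 alternative fits.

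Among glucuronosyltransferases, the genes called lower in *mtm* were *ugt2a2* and 5 of the *ugt5* family, which is found in fishes. One of them, *ugt5a4*, overlapped WT (0 to 5.04 CPM in *mtm*, 4.14 to 12.6 in WT). Its call was lost in 18 of 28 alternative fits, and that of *ugt5b2* in 7. The family members *ugt5b1* to *ugt5b5* lie next to each other in the RefSeq annotation (GRCz12tu). Of these 5, 4 were called lower, and the 5 log2 fold changes ranged from -2.88 to -2.04. For *ugt5b4*, WT libraries were at 139, 86.8, 150 and 183 CPM and *mtm* at 11.9, 19.6 and 60.7 CPM (-2.36, edgeR adjusted p = 3.62e-04), with *mtm* replicate 1 well above the other 5. For *ugt5b3*, they were at 29.9, 19.1, 41.2 and 47.8 CPM and at 3.32, 5.13 and 14.2 CPM (-2.26, adjusted p = 2.29e-04). For *ugt5b1*, they were at 19.6, 8.07, 25.7 and 24.7 CPM and at 0, 2.56 and 4.72 CPM (-2.88, adjusted p = 0.00401). In all 3 the highest *mtm* library lay below the lowest WT library. Reads of such close paralogs can be divided between them in estimation, so the single values are less certain than the run as a whole.

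In EtOH, *ugt5b4* was at 31.1 to 64.1 CPM, below every WT library (log2 fold change -1.43, edgeR adjusted p = 0.044), but the call was lost in 12 of 28 alternative fits. *ugt5b3* at 6.28 to 22.5 CPM missed the threshold (-1.27, adjusted p = 0.0504), and *ugt5b1* at 9.89 to 20.4 CPM lay within the WT range. *ugt2a2* was at 124, 94.7, 185 and 108 CPM in WT, at 22.9, 35.7 and 70.3 CPM in *mtm* and at 43.3 to 62.7 CPM in EtOH. It was lower in both conditions in every library (-1.65, adjusted p = 9.08e-04, and -1.17, adjusted p = 0.0358), and the EtOH call was lost in 9 of the 28.

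Not all glucuronosyltransferases followed. The *ugt1b* run, related to the mammalian family that conjugates bilirubin, had 2 tested genes. *ugt1b5* was at 32.5 to 71.5 CPM in WT, 20.6 to 54.6 in *mtm* and 52.9 to 116 in EtOH, not called against WT in either (edgeR adjusted p = 0.962 and 0.0758). *ugt1b7*, left out by the low-count filter, was at 1.45 to 10.985 CPM in WT and 2.03 to 5.92 in overfed, and 0 to 0.199 in *mtm* and 0 to 0.775 in EtOH. Its *mtm* libraries held 5 counts in all and its WT libraries 257, and without the filter it was called lower in *mtm* (adjusted p = 3.62e-04) and in EtOH (adjusted p = 0.00979). *ugt1b4*, also left out, had no count in 5 of 6 *mtm* libraries and 1.21 to 20.8 CPM in EtOH. Without the filter it was lower in *mtm* than in EtOH (adjusted p = 0.0201). Against WT it was not called in *mtm* (adjusted p = 0.297) or in EtOH (adjusted p = 0.316).

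The *ugt2b* genes and *ugt8* were not called against WT. *ugt2b6* was at 10.98 to 23.2 CPM in WT, 14.6 to 21.9 in *mtm* and 22.2 to 31.1 in EtOH (log2 fold change 0.91 in EtOH, edgeR adjusted p = 0.0553). *ugt8*, which in mammals adds galactose to ceramide, was at 42.4 to 88.3 CPM in WT and 91.4 to 122 CPM in *mtm*. All 6 *mtm* libraries were above WT, with a small difference that was not called (0.50, adjusted p = 0.125).

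Sulfotransferases moved in both directions. The *sult1* family, which in mammals conjugates phenols and thyroid hormone, held the large falls. *sult1st6* was at 279, 191, 169 and 107 CPM in WT and at 5.46, 16.1 and 32.9 CPM in *mtm* (log2 fold change -3.32, edgeR adjusted p = 1.61e-04). *sult1st3* was at 131, 137, 188 and 69.1 CPM in WT and at 2.148, 11.3 and 26.5 CPM in *mtm* (-3.52, adjusted p = 2.33e-04). *sult1st1* was at 117, 126, 196 and 55.4 CPM in WT and at 11.9, 21.4 and 28.0 CPM in *mtm* (-2.63, adjusted p = 4.48e-04). WT replicate 4 was lowest for all 3, and was still above every *mtm* library. In EtOH they were at 39.9 to 77.6, 42.5 to 82.8 and 19.6 to 67.5 CPM, none of them called (adjusted p = 0.0627, 0.317 and 0.129). For *sult1st6* every EtOH library was nonetheless below every WT library, and 10 of 28 alternative fits called it. *sult1st3* and *sult1st1* were each called in 2 of the 28.

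The rest of the *sult1* family was not called in *mtm*. *sult1st2* was at 2.79 to 10.3 CPM in WT and 0.374 to 4.82 in *mtm*, and *sult1st4* at 4.61 to 29.8 and 6.75 to 12.6 CPM. *sult1st5* was at 1.62 to 3.95 CPM in WT and at 1.11 CPM in EtOH replicate 1 against 14.95 to 17.96 CPM in the other 3 EtOH libraries, which was not called (log2 fold change 2.35, edgeR adjusted p = 0.135).

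The largest rise was that of *sult3st4*, of a family whose mouse member acts on amines. It was at 0.91, 3.72, 5.03 and 3.07 CPM in WT and at 72.2, 141 and 259 CPM in *mtm*. Each *mtm* library was over 10 times the highest WT library, and the fitted rise was 45.4-fold (log2 fold change 5.50 ± 0.895, edgeR adjusted p = 4.00e-04). In EtOH it was at 88.8, 69.1 and 31.6 CPM in replicates 1, 3 and 4 and at 1.58 CPM in replicate 2, inside the WT range. Fitted over all 4 the rise was 13.4-fold (3.74 ± 0.844, adjusted p = 0.0117), and without replicate 2 the log2 fold change was 4.27 (adjusted p = 0.000672). EtOH replicate 2 also had the highest sum of skeletal muscle markers, at 7875 CPM against 531 to 689 in the other EtOH libraries, and their part in this value was not tested. The call in EtOH was lost when only the EtOH and WT libraries were fitted (3.38, adjusted p = 0.144). Its neighbor *sult3st2* was at 32.2 to 54.1 CPM in WT and 25.9 to 60.2 in *mtm*, with no difference called (adjusted p = 0.999).

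Of the *sult2* family, whose mammalian members conjugate hydroxysteroids and bile salts, 2 adjacent genes went opposite ways. *sult2st1* was at 10.01, 20.1, 30.7 and 15.4 CPM in WT, at 26.4, 39.1 and 73.1 CPM in *mtm* and at 63.8, 30.1, 130 and 63.8 CPM in EtOH. It rose 2.58-fold in *mtm* (log2 fold change 1.37, edgeR adjusted p = 0.0281) and 3.67-fold in EtOH (1.88, adjusted p = 0.0135), with WT replicate 3 overlapping both groups, and the calls were lost in 7 and 3 of 28 alternative fits. *sult2st2* was at 239, 206, 362 and 194 CPM in WT and at 65.0, 106 and 140 CPM in *mtm*, a fall of 2.34-fold (-1.22, adjusted p = 0.00805). In EtOH *sult2st2* was at 361, 351 and 376 CPM in 3 libraries and at 124 CPM in replicate 2, and was not called (0.25, adjusted p = 0.723).

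*sult6b1*, of a family with little known function, was at 76.1 to 174 CPM in WT, 102 to 278 in *mtm* and 148 to 260 in EtOH, overlapping in both. The brain-type *sult4a1*, left out by the filter, was at 0 to 6.17 CPM in WT and 0.0565 to 1.43 CPM in *mtm*. Without the filter it was called lower in *mtm* (edgeR adjusted p = 0.0351) and not in EtOH (adjusted p = 0.399).

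**Figure D4:**
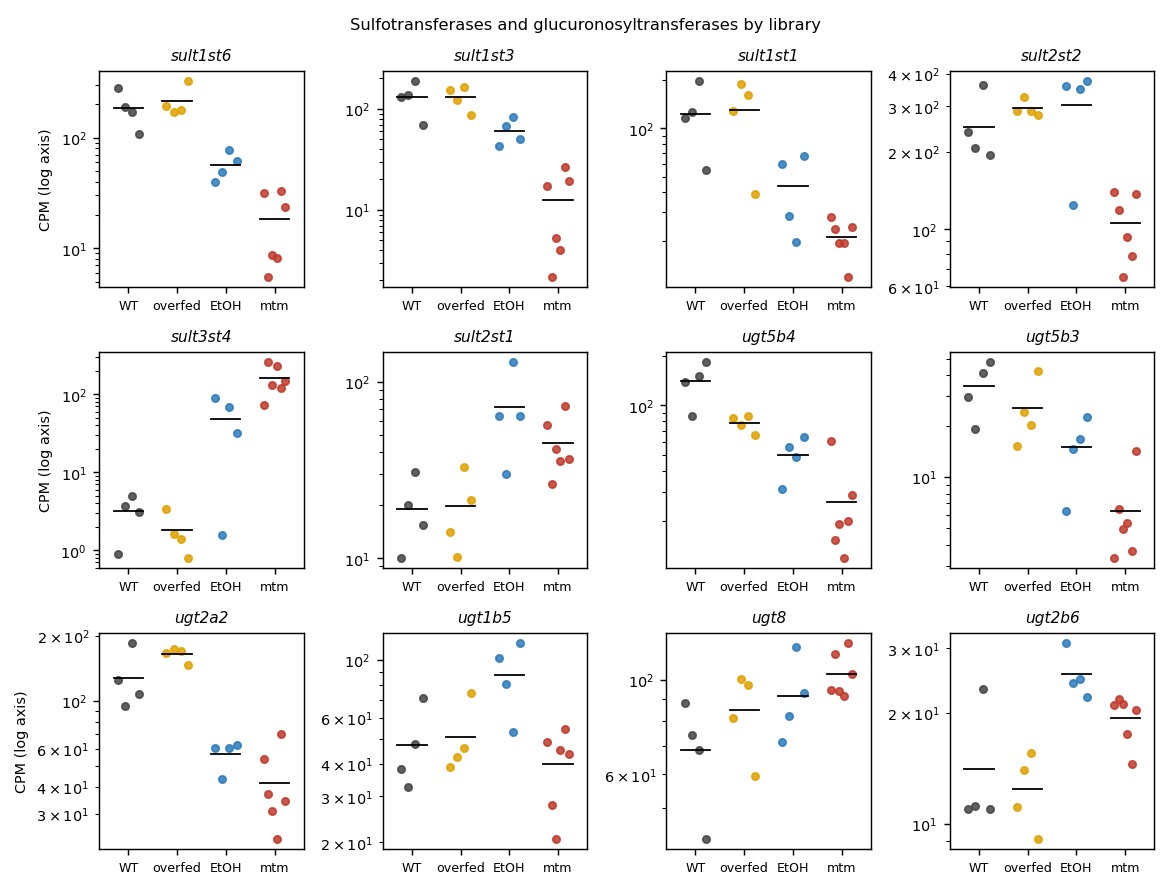
CPM of 6 sulfotransferases and 6 glucuronosyltransferases (log axis) in each library by group, with the group mean as a line. *sult3st4* is below 5.1 CPM in WT and overfed and above 72 CPM in all *mtm* libraries, with EtOH replicate 2 alone among EtOH libraries at the WT level.

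None of the 6 *nat* rows carried the symbol of an arylamine N-acetyltransferase, the drug-metabolizing enzymes of that name, and none was called in any comparison. *nat10*, which acetylates cytidine in RNA, was at 4.43 to 30.9 CPM in WT and 7.36 to 23.3 in *mtm* (log2 fold change -0.70 ± 0.44, edgeR adjusted p = 0.314). *nat9* was at 16.9 to 30.5 and 19.3 to 32.5 CPM, and *nat14* at 7.58 to 13.3 and 7.05 to 38.1 CPM. *nat15* was at 0.0796 CPM in *mtm* R2 and at 4.29 to 12.7 CPM in the other 5. *nat8l*, which makes N-acetylaspartate in neurons, was left out by the filter and reached 19.3 CPM in *mtm* R2 and 12.5 CPM in EtOH replicate 2, against at most 2.44 CPM in WT and overfed libraries. Without the filter *nat8l* was not called against WT in *mtm* (edgeR adjusted p = 0.813) or in EtOH (adjusted p = 0.528). *mtm* R2 and EtOH replicate 2 had the highest sums of skeletal muscle markers of their groups, at 1686 and 7875 CPM. The part of other tissue in the *nat8l* values was not tested.

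In EtOH against WT livers, 9 of the 55 genes were lower and 2 higher by edgeR's quasi-likelihood test, against 2.70% and 4.66% of all genes. The 9 were 6 of 13 *gst*-prefix glutathione transferases (*gstr*, *gstt1b*, *gstk1*, *gstt2*, *gstm.1*, *gsta.1*), *mgst3a*, *ugt2a2* and *ugt5b4*. The median log2 fold change was -1.09 over the *gst*-prefix genes and 1.002 over the 5 membrane-bound ones, beside -0.03 over all genes. In every library 13 genes were below and 3 above WT (*mgst1.1*, *mgst1.2* and *sult2st3*), against 7.63% and 8.06% of all genes. With a log2 fold change beyond 2 also required, *gstr* and *gstt1b* were lower and *sult3st4* higher, against 1.21% and 2.01% of all genes. The counts depended on the fit. Of the 9 genes lower, *gstr* and *gstt1b* stayed called under all 28 alternatives, and leaving out EtOH replicate 1 or replicate 3, or WT replicate 1 or 3, left 5, while without the 5 libraries rich in pancreas markers 3 were called. DESeq2 called 13 lower and 8 higher, the added 6 including *mgst1.1*, *mgst1.2* and *mgst3b*. Its share over all genes was not counted.

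In *mtm* against WT livers the calls were more stable. Of the 24 genes lower, 18 stayed called under all 28 alternatives, and leaving out any 1 library gave 19 to 25. Without *mtm* R2 there were 24 lower and 3 higher. The 18 included 10 glutathione transferases, *ugt2a2*, *ugt5b1*, *ugt5b3*, *ugt5b4*, *sult1st1*, *sult1st3* and *sult1st6*. Without the 5 pancreas-rich libraries 22 were lower and 1 higher.

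In the direct test of *mtm* against EtOH livers, 15 of the 55 genes were lower in *mtm* and 0 higher, against 4.20% and 2.87% of all genes. Beyond a log2 fold change of 2 there were 5 lower and 0 higher (1.04% and 1.09% of all genes), and without overlap 15 lower and 0 higher (4.65% and 3.65%). At an unadjusted p under 0.05 there were 25 of the 55 genes and 2641 of all 11489. DESeq2 called 21 lower and 0 higher, and its share over all genes was not counted. The 15 included 9 of 18 glutathione transferases (5 of the *gst* prefix and 4 of the 5 membrane-bound), 3 glucuronosyltransferases, *sult1st3* and *sult2st2*. The glucuronosyltransferases were *ugt1b5*, *ugt2b5* and *ugt5b1*, whose calls were lost in 21, 19 and 13 of 28 alternative fits. *gstp1* was 4.11-fold lower in *mtm* (log2 fold change -2.04, edgeR adjusted p = 0.00223), *gstk1* 3.50-fold (-1.81, adjusted p = 0.00354), *gsta.1* 2.96-fold (-1.56, adjusted p = 0.00547) and *gstr* 2.26-fold (-1.18, adjusted p = 0.00784). With only these 2 groups fitted the count was 3 (*gstp1*, *mgst1.1* and *mgst3b*), without EtOH replicate 1 it was 8, without *mtm* R1 or *mtm* replicate 3 it was 9, and from the first *mtm* submission alone it was 8.

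**Figure D5:**
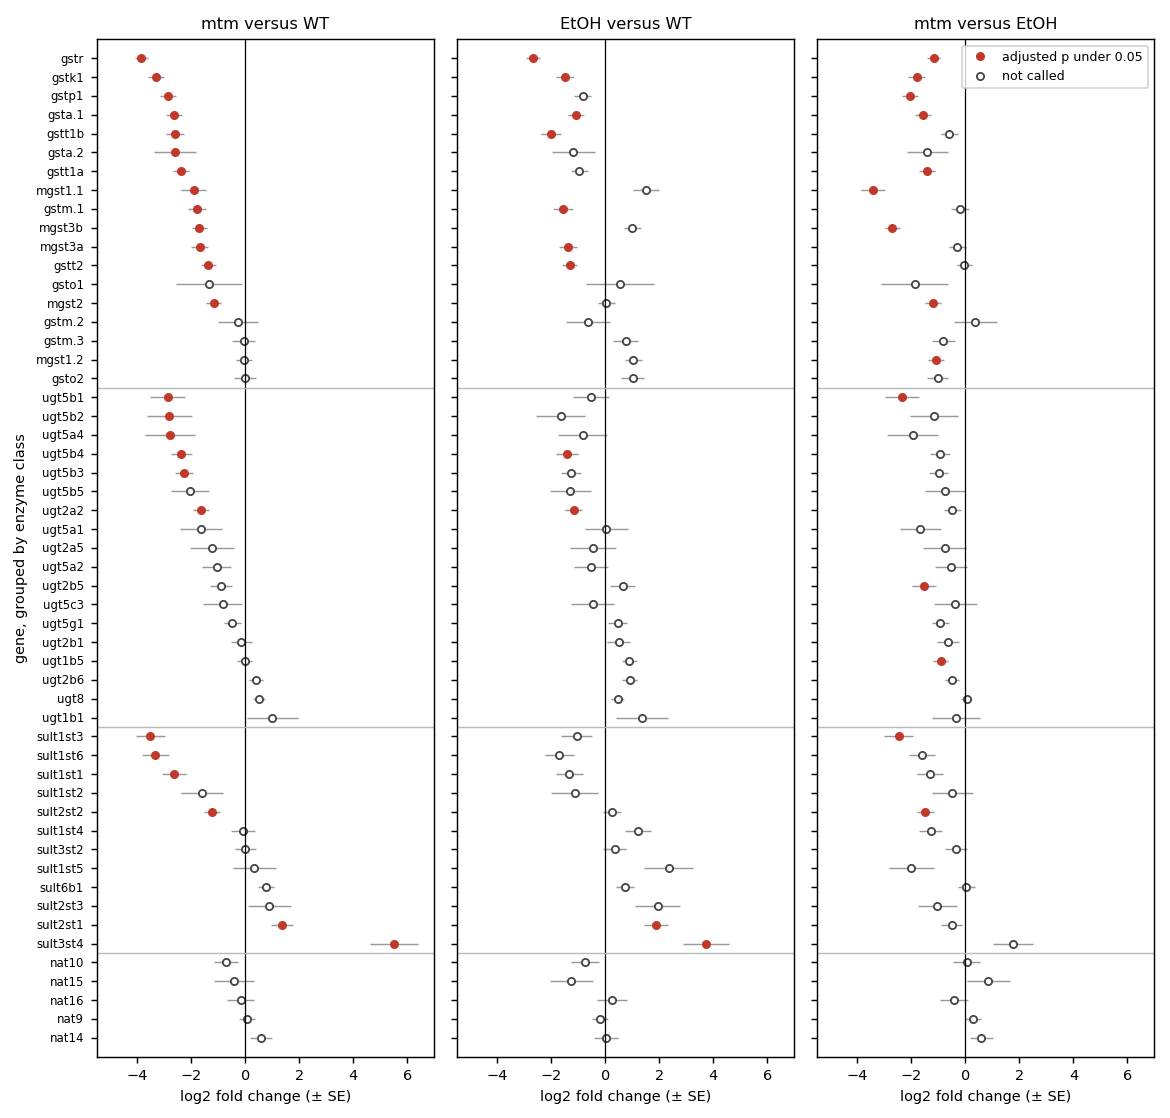
Log2 fold change (horizontal axis, bars ± SE) of each tested gene of the 4 classes, grouped by class with grey lines between classes, in 3 comparisons. Filled points passed an adjusted p under 0.05. Most glutathione transferases lie left of 0 in *mtm* against WT, from -3.85 for *gstr*, while *mgst1.1* and *mgst3b* lie right of 0 in EtOH against WT and far left in *mtm* against EtOH.

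Overfed livers showed no called gene in either direction (0 of 55, 0.0% of all genes) by edgeR's quasi-likelihood test, and none by DESeq2. At an unadjusted p under 0.05 there were 4 of the 55 genes and 493 of all 11489. The summed glutathione transferase level lay within the WT range in all 4 overfed libraries, with 16 of 18 fold changes above 0 and a median log2 fold change of 0.41. Over all genes the median was -0.04, with 53.7% below 0. The 18 fold changes share the same libraries, so their signs are not separate observations. The smallest p among the 55 genes was that of *sult1st4*, at 3.85, 1.66, 3.72 and 15.6 CPM against 4.61 to 29.8 in WT (log2 fold change -1.47 ± 0.491, adjusted p = 0.983). Of the genes without overlap, *sult3st2* (16.8 to 27.9 CPM), *ugt5b4* (66.4 to 86.3) and *ugt5b2* (3.02 to 4.66) were below WT and *sult2st3* (4.62 to 10.3) above, against 1.97% and 2.37% of all genes.

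Against overfed livers, *mtm* livers had 24 conjugation genes lower and 3 higher (11.8% and 13.8% of all genes), and EtOH livers 10 lower and 5 higher (5.09% and 8.26%), by the same edgeR test. Beyond a log2 fold change of 2 there were 18 lower and 1 higher in *mtm* (4.33% and 6.41%), and 4 lower and 3 higher in EtOH (1.98% and 4.0%). Without overlap there were 24 lower and 1 higher in *mtm* (10.5% and 10.9%), and 17 lower and 7 higher in EtOH (12.1% and 13.7%). In *mtm* the genes lower again included 13 of 18 glutathione transferases. In EtOH the 5 higher were *sult1st4*, *sult1st5*, *sult2st1*, *sult3st4* and *ugt2b6*. The comparisons that share WT, overfed, *mtm* or EtOH libraries are not independent of each other.

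Genes listed under conjugation donor supply were counted in the same fit. There 10.1% of all genes were called higher and 8.59% lower in *mtm*, and 4.66% and 2.70% in EtOH. Lists this short, with 1 to 4 genes called, are given as counts beside those shares, and nothing particular to a list is read from them. Of 12 tested genes of glutathione synthesis and recycling, 1 was higher and 2 lower in *mtm*, and 1 was higher in EtOH. *gclm*, the modifier subunit of the rate-limiting enzyme, rose from 22.9 ± 9.93 CPM in WT (SD, n = 4) to 45.5 ± 10.1 in *mtm* (n = 6) and 63.0 ± 9.76 in EtOH (n = 4) (log2 fold changes 0.92 and 1.59, edgeR adjusted p = 0.0329 and 0.00486). *oplah* and *cthl*, which recycle 5-oxoproline and make cysteine, fell in *mtm* (-2.14, adjusted p = 0.000385, and -4.43, adjusted p = 0.00665). The catalytic subunit gene *gclc* was not called (adjusted p = 0.817 and 0.954).

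Of the 3 tested genes of the glucuronate donor list, all were lower in *mtm*, although the list is not limited to enzymes that make the donor. *ugp2a*, which makes UDP-glucose, went from 67.7 ± 39.3 CPM in WT to 9.19 ± 7.22 in *mtm* (log2 fold change -2.60, edgeR adjusted p = 0.000201). *slc35b1* and *gusb*, the latter a lysosomal enzyme that removes glucuronate, were lower too (-1.61 and -1.37). Of 5 genes of sulfate donor supply, *papss2b*, a synthase of the donor, rose and *bpnt1*, which degrades its spent form, fell (0.81 and -0.80). Of 8 genes of methyl and acetyl donor supply, *mat1a*, *acss2l* and *aclya* fell in *mtm*, and *acss2l* and *aclya* fell in EtOH.

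Of 7 export pumps tested, *abcc3*, which moves conjugates into blood, rose in *mtm* from 2.20 ± 2.13 to 8.12 ± 3.87 CPM (log2 fold change 2.72, edgeR adjusted p = 0.00248), and *abcg2a* fell (-1.16, adjusted p = 0.011). Of 17 sensors and regulators, 2 (*ahr2* and *arnt2*) were higher in *mtm* and 1 (*keap1b*, the partner that holds NRF2 in check) in EtOH, shares near those of all genes. Of 11 genes that report NRF2 or AHR activity, *nqo1* and *hmox1a* rose and *cyp1a* fell in *mtm*, and *hmox1a*, *prdx1* and *pgd* rose in EtOH. Of 7 tested genes listed as other conjugating enzymes outside the symbol rule, 4 were lower in *mtm*, namely *hnmt*, *as3mt*, *ptgesl* and *gstz1*. That list is not limited to enzymes whose main reaction is conjugation. None of the genes on these lists was called in overfed livers, where no gene at all was called.

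Cell type markers moved with the groups. The 10 hepatocyte markers summed to a median of 166800 CPM in WT, 36020 in *mtm* and 98520 in EtOH. The EtOH libraries (59630 to 103000 CPM) all lay below WT (110800 to 201500), and so did 5 of 6 *mtm* libraries. Most of the WT sum was *apoa2*, an apolipoprotein gene, at a mean of 126160 CPM in WT, 22350 in *mtm* and 48289 in EtOH. By edgeR's test 2 of the 10 (*serpina1* and *apoa2*) were called lower in *mtm* and none in EtOH, with median log2 fold changes of -0.37 and 0.38. *fabp10a* was not called in *mtm* (-0.04 ± 0.327, adjusted p = 0.959) or in EtOH (-0.94, adjusted p = 0.12), although all 4 EtOH libraries were below WT.

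All 6 tested macrophage and all 5 tested neutrophil markers were higher in *mtm*, as were 3 and 2 of them in EtOH. The macrophage markers summed to 134 to 347 CPM in *mtm*, 4.17 to 13.8 in WT and 22.3 to 75.9 in EtOH. The neutrophil markers summed to 749 to 3470 CPM in *mtm*, 129.7 to 399.9 in WT and 1575 to 3152 in EtOH. That EtOH sum, untested markers included, lay within the *mtm* range. Gene by gene, edgeR's direct test called 4 of the 5 higher in *mtm* than in EtOH (*lyz*, *mmp9*, *nccrp1* and *npsn*) and 0 lower. Over all genes, 2.87% were called higher in that comparison. Of 6 bile duct markers, 4 were higher in *mtm* and 1 in EtOH. Bile duct sums, untested markers included, were 1182 to 4593 CPM in *mtm*, 517 to 1154 in WT and 1451 to 2153 in EtOH. Every *mtm* and EtOH library was above WT in that sum. Of 10 intestine markers, 3 (*fabp2*, *rbp2a* and *apoa4a*) were lower and 1 higher in *mtm*, with a median sum of 105.7 CPM against 856.5 in WT, and 1 was lower in EtOH. Of 4 skin markers, 3 were lower in *mtm* and 1 was higher in EtOH. The part of cell makeup in the changes of conjugation genes was not tested.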

How the data were processed

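RNA from pools of 40 livers was converted to cDNA with SMART-Seq v4 and sequenced paired-end from Nextera XT libraries, which keep no strand. The authors trimmed reads with Trim Galore 0.6.6, checked them with FastQC 0.11.09, quantified them with Salmon against GRCz11 and tested them with DESeq2 1.24.0. The deposited values are estimated counts per gene, whole numbers, in 1 table of 18 columns, and 0 columns were left without a sample. The files of the *abcb11b* experiment were not used here. In the table, 15 rows carry dates in place of gene symbols and could not be members.

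Counts were analysed in R 4.3.3 with edgeR 4.0.16. A gene was kept when a share of 0.8 of the libraries held 5 reads or more. Kept genes were scaled by TMM and fitted over all 18 libraries with group and replicate number, the covariate of the study's methods. A call is an adjusted p under 0.05 (quasi-likelihood F test in edgeR, p-values adjusted by Benjamini-Hochberg across 11489 genes). The lists and members were chosen with earlier results of these data known. Members were named by the 4 smallest adjusted p in each of the GST, UGT and SULT classes and the 2 smallest in each smaller class (*mtm* and EtOH against WT), the 4 smallest in *mtm* against EtOH, the 3 smallest p in overfed, the 3 highest WT means per class, a short list of symbols, and the 3 highest counts left out by the filter. This gave 35 members, 31 of them tested. Of the 62 genes, 2 belong to a class that enters the counts over all members and is not reported here. Up to 3 genes per pathway list were named by adjusted p. Other genes were named after their values were seen. Fold changes are printed mainly for genes called or with a change larger than its SE. Exceptions include *sult2st2* in EtOH and *fabp10a* in *mtm*. Estimation can divide reads among near-identical paralogs. Neighbors were taken from RefSeq GRCz12tu for 59 members, within 3 genes. In counts simulated for *mtm* against WT over 11489 genes, 5 of 67, 32 of 67 and 54 of 66 genes changed by a log2 of 1, 2 and 3 were recovered, with 1 false call of 92. No other genes were changed there, whereas 1160 genes were called higher and 987 lower in the data. The adjustment depends on how many genes change, so these rates need not be those of the real comparison. Alternatives were DESeq2 1.42.0, its size factors, other filters, no replicate block, fewer groups, each *mtm* submission alone or same-numbered libraries summed, other thresholds, each library left out, and, added after seeing the data, the 5 pancreas-rich libraries left out. Promoter motifs and protein identity were not analysed here. No 2 libraries of a group had duplicate counts (lowest chi-square per degree of freedom 45.06). That check does not show whether 2 libraries came from the same RNA.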

Additional observations from a re-analysis of the deposited data

Results flagged for a closer look

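A single library stood apart from the rest of its group for 17 of 132 combinations of gene and group, by its gap to the nearest value over the range of the group (Dixon's 95% limit, which chance passes in about 1 of 20 groups). No explanation was tested for any of them. In *mtm* R3, *gsta.1* had 135 CPM against 24.5 to 62.9 and *ugt5b3* had 14.2 CPM against 3.32 to 6.49. In EtOH 1, *gstk1* had 85.5 CPM against 31.1 to 32.0. In *mtm* 1, *gstt1a* had 142 CPM against 40.2 to 71.9, *ugt1b4* had 1.93 CPM against 0 in the others and *ugt5b4* had 60.7 CPM against 11.9 to 28.9. In EtOH 2, *gstt1b* had 20.6 CPM against 8.06 to 8.73, *sult2st2* had 124 CPM against 351 to 376 and *ugt2a2* had 43.3 CPM against 60.2 to 62.7. In WT 3, *mgst1.1* had 26.2 CPM against 11.8 to 13.8 and *ugt2b6* had 23.2 CPM against 10.98 to 11.2. In overfed 4, *nat10* had 6.79 CPM against 23.6 to 24.1, *sult1st4* had 15.6 CPM against 1.66 to 3.85 and *sult1st6* had 323 CPM against 169 to 192. In *mtm* R2, *nat14* had 38.1 CPM against 7.05 to 15.7 and *nat8l* had 19.3 CPM against 0 to 1.83. In EtOH 4, *ugt5b1* had 20.4 CPM against 9.89 to 11.1.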

How the results depend on the processing

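The count of conjugation genes lower in *mtm* than in WT was 19 to 25 as each library was left out, and 16 to 26 over all alternatives, 16 being the count beyond a log2 fold change of 2. The count higher in *mtm* than in WT was 1 with only those groups fitted, with the first *mtm* submission alone, without the pancreas-rich libraries and beyond a log2 fold change of 2, and 1 to 3 with each library left out. In EtOH against WT, the count higher was 8 by DESeq2, 4 with only those groups, 6 with either *mtm* submission alone, 10 with same-numbered *mtm* libraries summed, and 1 without the pancreas-rich libraries or beyond a log2 fold change of 2 (1 to 8 leaving out libraries). The count lower there was 15 with libraries summed, 3 without the pancreas-rich libraries and 2 beyond a log2 fold change of 2 (5 to 12). For *mtm* against EtOH the count lower was 3 with only those groups, 8 with the first submission and 5 beyond a log2 fold change of 2 (8 to 17). Against overfed livers, the count higher in *mtm* was 1 without the pancreas-rich libraries or beyond a log2 fold change of 2 (1 to 4, lowest without overfed replicate 1 or 2). In EtOH the count higher was 10 with libraries summed and 3 beyond a log2 fold change of 2 (3 to 7, lowest without overfed replicate 1 or 4), and the count lower 6 without the pancreas-rich libraries and 4 beyond a log2 fold change of 2. Genes above overfed in every EtOH library numbered 3 with DESeq2 size factors and 7 with TMM. The log2 fold change of *nat14* in *mtm* turned to -0.0358 with the first submission alone. Shares over all genes were not counted for the alternative fits. The causes were not tested. Without the replicate block, *mtm* against WT gave 24 lower and 2 higher, EtOH against WT 9 and 3, *mtm* against EtOH 16 and 0, *mtm* against overfed 25 and 2, and EtOH against overfed 11 and 6. Same-numbered libraries of different groups had correlations of deviations from -0.229 to 0.337, with 7 of 30 over 0.1. Of 90 pairs of other numbers in different groups, 14 were over 0.1. The median correlation was -0.0026 for same-numbered pairs and 0.0022 for the other pairs. Of 18 libraries, 10 were closest to one of their own number, and the share to be met by chance was not computed. No limit was set that would decide whether libraries pair by number, and the labels name no shared clutch or day. The numbers were therefore not read as showing that libraries pair. Replicate number stayed in the main fit because it is the covariate of the study's methods. Genes under about 1 CPM rest on few counts in the shallower libraries.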
